A study of Mus musculus with 4 samples.

Results

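The collagen genes of mouse were described by chain type in RNA sequencing of adipocytes of the perigonadal white depot, the visceral fat next to the gonads. Members were all 44 of 55487 rows whose whole symbol has the form of a collagen chain gene (Col, a type number, a and a chain number), taken by name and not by any measured value. By class, 11 were fibrillar, 6 basement membrane, 6 microfibrillar (beaded filament) and 21 other collagens. The libraries came from CKO mice and from littermate controls labelled WT, all males on the standard diet, with 2 libraries for each group. The labels give neither the gene that the CKO mice lack nor the promoter that drives its deletion, nor the age of the mice or whether a library pools animals. The series title names BLIMP1, a transcriptional repressor encoded by Prdm1. Reads of Prdm1 numbered 152 and 386 in CKO replicates 1 and 2, against 514 and 1135 in WT replicates 1 and 2.

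Library totals ran from 24152081 to 26742547 reads, and collagen genes took 0.233% to 0.393% of them. Values below are scaled reads, the deposited reads divided by a size factor of 0.951 to 1.10 for each library, and a difference is the CKO mean less the WT mean of log2(scaled reads + 1). Where values are given by group, replicate 1 comes before replicate 2. A gene was tested in limma where its mean deposited log2 value was at least 3, and 30 of the 44 collagens were (16871 genes in all). The library set apart from the rest was WT replicate 2, with the fewest summed reads of adipocyte markers (213551, against 597569 to 783274) and of endothelial markers (25387, against 71069 to 123747), and the most of macrophage markers (435073, against 30523 to 151437). Each class is therefore also given without it. As the label adipocytes would have it, all 8 adipocyte markers were read and tested, but markers of fibroblasts, endothelium, pericytes and macrophages were read as well. Mesothelial markers summed to 170 to 386 scaled reads and markers of epididymal epithelium to 2.10 to 12.7, with Lcn5 at 0 in all libraries. In such a bulk preparation, fewer cells of a type and less RNA per cell cannot be told apart.

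Collagens are the main proteins of the extracellular matrix. Their chains wind into triple helices, in which prolines and lysines are hydroxylated before secretion, and the helices then assemble outside the cell. Fibrillar types I, III and V form banded fibrils and are made mostly by fibroblasts and preadipocytes. Type IV forms the sheet-like network of basement membranes, which in fat surround each adipocyte and each capillary. Type VI makes beaded filaments at the border between the basement membrane and the fibrils, and the remaining types decorate fibrils, line vessels or span the cell membrane.

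The type IV genes are shown first by sequence, because they lie head to head in pairs. As given below, the ratio of Col4a1 to Col4a2 varied little between libraries, and that of Col4a3 to Col4a4, on few reads, varied more. Whether this layout bears on the ratios was not tested. On GRCm38, Col4a1 (chr8:11198423-11312826, minus strand) and Col4a2 (chr8:11312805-11449287, plus strand) start so close that the annotated genes overlap by 22 bases. Col4a4 (chr1:82448423-82586849, minus strand) and Col4a3 (chr1:82586921-82722059, plus strand) are separated by 71 bases, and Col4a6 and Col4a5 on chromosome X by 1308. The lines below hold a CCAAT box before the start of Col4a2 (chr8:11312760-11312789, plus strand, the box in capitals and beginning 32 bases before the start) and the whole gap between Col4a4 and Col4a3 (chr1:82586850-82586920, plus strand). The third line holds the only match in the collagen promoter windows to the letters AGTGAAAG or AGCGAAAG, used here as the core of BLIMP1's element, before Col4a4 (chr1:82586974-82587003, minus strand, capitals mark the match, 143 bases before the start). By these coordinates the Col4a2 stretch also lies inside the annotated Col4a1, and the Col4a4 stretch lies past the gap, inside the annotated Col4a3.
Col4a2 CCAAT box: cccgaggagctccCCAATttgttggcgctg
Col4a4 to Col4a3 gap: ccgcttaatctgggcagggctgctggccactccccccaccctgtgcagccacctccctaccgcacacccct
Col4a4 match: ccaggggtcagAGTGAAAGatgtgatgtcc

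Promoter windows of 300 bases (250 before the start and 50 after, from RefSeq on GRCm38.p6, searched on both strands) were found for 35 of the 44 collagens, as 38 windows. AGTGAAAG or AGCGAAAG stood in 1 of these 38 and in 604 of all 32851 windows (1.84%). CCAAT stood in 13 collagen windows (34.2%) against 37.4% of all windows, and TATAAA in 5 (13.2%) against 13.6%. GGGCGG, the letters of a GC box, stood in 23 (60.5%) against 35.7% of all windows. These are matches of letters and not measured binding. Col4a4, which holds the AGTGAAAG match, had 23.0 and 22.6 scaled reads in CKO and 67.5 and 15.8 in WT, so its groups overlapped.

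No collagen passed the adjusted threshold, and neither did any other gene (0% of 16871, limma with Benjamini-Hochberg adjustment, smallest adjusted p 0.459). At an unadjusted p under 0.05, 3 collagens were lower in the CKO libraries (Col1a1, Col1a2 and Col14a1) and 3 were higher (Col8a1, Col22a1 and Col28a1). Each is 3 of 30 tested, beside 7.26% of all genes lower and 3.35% higher (1224 and 566 genes, or 855 and 859 on unscaled values). Both CKO libraries lay below both WT libraries in 9 of 30 collagens, a share near the 26.8% of all genes, and above both in 5, against 23.9% of all genes. Of the 9, Col11a2, Col13a1, Col16a1 and Col27a1 were apart only after scaling. As a family, then, the collagens were split, with 16 lower, 14 higher and a median of -0.19, where the median of all genes was 0.015. The spread lay between and within the classes: the class medians were -0.61 for fibrillar, 0.48 for basement membrane, -0.25 for microfibrillar and 0.41 for other collagens.

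**Figure D1:**
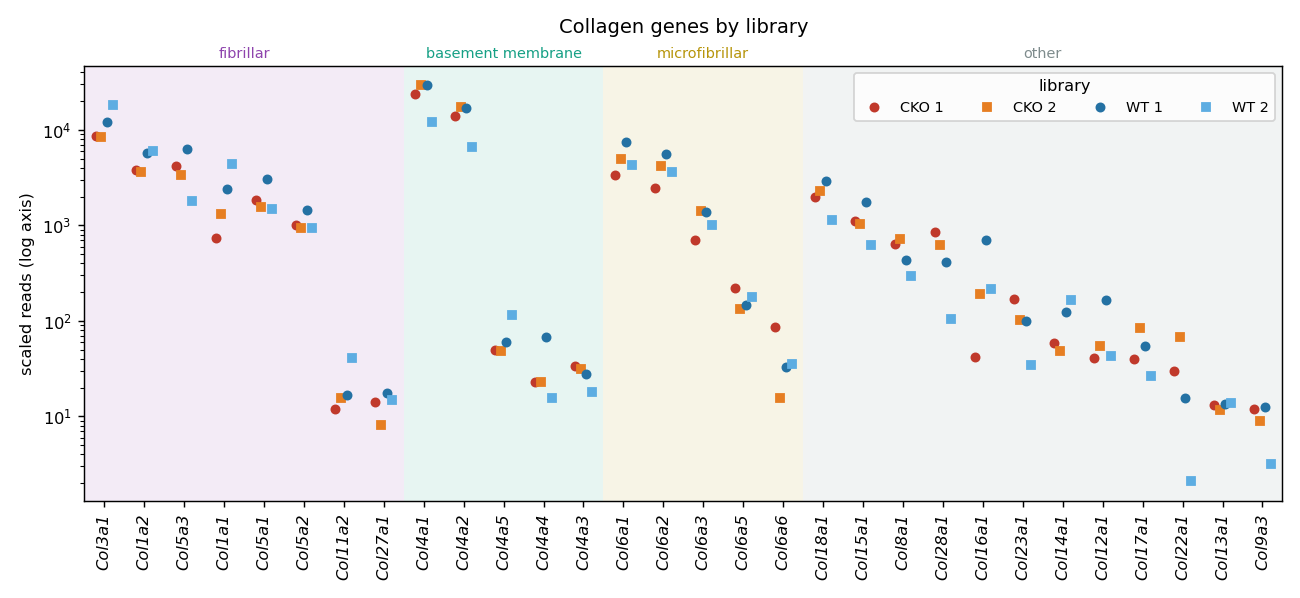
Scaled reads (log axis) of the 30 tested collagen genes, grouped by class and ordered by level within it; each point is 1 library, red and orange for CKO and dark and light blue for WT. Col1a1, Col1a2 and Col3a1 have both CKO points below both WT points, while in Col4a1 and Col4a2 only WT replicate 2 lies low.

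Fibrillar collagens were the class with the most members lower in the CKO libraries. Of 11 members 8 were tested, 7 were lower and 1, Col5a3, was higher. In 5 of the 8 (62.5%) both CKO libraries lay below both WT libraries, with 0 the other way, beside the 26.8% and 23.9% of all genes. Of these 5, Col11a2 and Col27a1 had few reads and were apart only after scaling. Their reads were 12 and 17 in CKO against 16 and 39 in WT, and 14 and 9 against 17 and 14. Col1a1, the α1 chain of type I collagen (chr11:94936224-94953042), had 731 and 1311 scaled reads in CKO replicates 1 and 2, against 2407 and 4439 in WT replicates 1 and 2. The 4 libraries did not overlap between groups, and within each group replicate 1 and replicate 2 were far apart. Its means were 1021 ± 410 and 3423 ± 1437 (SD, n = 2), a log2 difference of -1.74 (SE 0.44, limma unadjusted p 0.012, adjusted p 0.459).

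Col1a2, the α2 chain of the same molecule (chr6:4504814-4541544), was tighter. It had 3765 and 3635 scaled reads in CKO and 5693 and 6076 in WT, so that the gap between groups was wider than the spread within either. The log2 difference was -0.67 (SE 0.25, limma unadjusted p 0.042, adjusted p 0.459), and it was -0.62 without WT replicate 2. Col3a1, the single chain of type III collagen, which is laid down with type I in pliable tissue (chr1:45311538-45349706), had 8539 and 8353 scaled reads in CKO and 11984 and 18401 in WT. The CKO libraries were nearly level and both lay below the WT libraries, at a log2 difference of -0.81 (SE 0.37, limma unadjusted p 0.077) that was -0.50 without WT replicate 2.

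Type V collagen, which starts fibrils and lies inside them, did not separate the groups. Col5a1 had 1859 and 1541 scaled reads in CKO and 3086 and 1468 in WT, Col5a2 had 1020 and 950 against 1466 and 931, and Col5a3 had 4184 and 3361 against 6256 and 1806. In all 3 genes WT replicate 1 was the highest library and WT replicate 2 the lowest. Their log2 differences of -0.33, -0.25 and 0.16 turned with 1 library: without WT replicate 1 they were 0.21, 0.08 and 1.05, and without WT replicate 2 they were -0.87, -0.57 and -0.74. Col11a2 and Col27a1, chains best known from cartilage, were low. Col11a2 had 12.0 and 15.4 scaled reads in CKO and 16.6 and 41.0 in WT (log2 difference -0.90), and Col27a1 had 14 and 8.15 against 17.7 and 14.7 (-0.55). Markers of cartilage and bone summed to 73.1 to 148 scaled reads, with Matn1 and Bglap at 0 in all libraries. The remaining fibrillar genes fell short of the minimum: Col2a1 had 2 to 8 reads, Col11a1 0 to 8 and Col24a1 5 to 8.

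The median of the fibrillar class was -0.61 and stayed between -0.71 and -0.42 when each library was left out in turn, at -0.65 without WT replicate 2. Summed over the class, scaled reads were 20133 and 19184 in CKO and 30945 and 33202 in WT. As a sum, markers of fibroblasts and preadipocytes, the usual makers of these chains, did not follow that order. Their sums were 17269 and 20231 in CKO and 16766 and 12197 in WT. Most of these reads were from Ly6a, Cd34 and Dcn, which overlapped between groups. Ly6a had 4900 and 10149 scaled reads in CKO and 5708 and 2960 in WT, Cd34 3727 and 5866 against 4784 and 2162, and Dcn 7576 and 3169 against 4532 and 4348. In Ly6a and Cd34, CKO replicate 2 was the highest library and WT replicate 2 the lowest, as in the summed endothelial markers. The part of endothelium in these reads was not tested, so the sum is not a measure of fibroblasts alone. Within that list 8 of 12 markers were lower and 4 higher (median -0.30, none at 0 in all libraries). In 6, Pdgfra, Lum, Fbn1, Mfap5, Clec3b and Thy1, both CKO libraries lay below both WT libraries (26.8% of all genes), as in the fibrillar sums. The lowest p-values were those of the matrix genes Lum (-1.90) and Mfap5 (-1.96). Macrophage markers were lower in 8 of 8, with sums of 30523 and 73406 in CKO replicates 1 and 2 and 151437 and 435073 in WT replicates 1 and 2. Col1a1 ranked the 4 libraries in the same order as these sums. That order is not particular to Col1a1. The first principal component, the axis of largest variation over all tested genes (77.7% of the variance), had it too. Its scores were -84.4 and -38.0 in CKO replicates 1 and 2 and 4.18 and 118 in WT replicates 1 and 2. The part of fibroblasts, preadipocytes or macrophages in the fibrillar values was not tested.

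**Figure D2:**
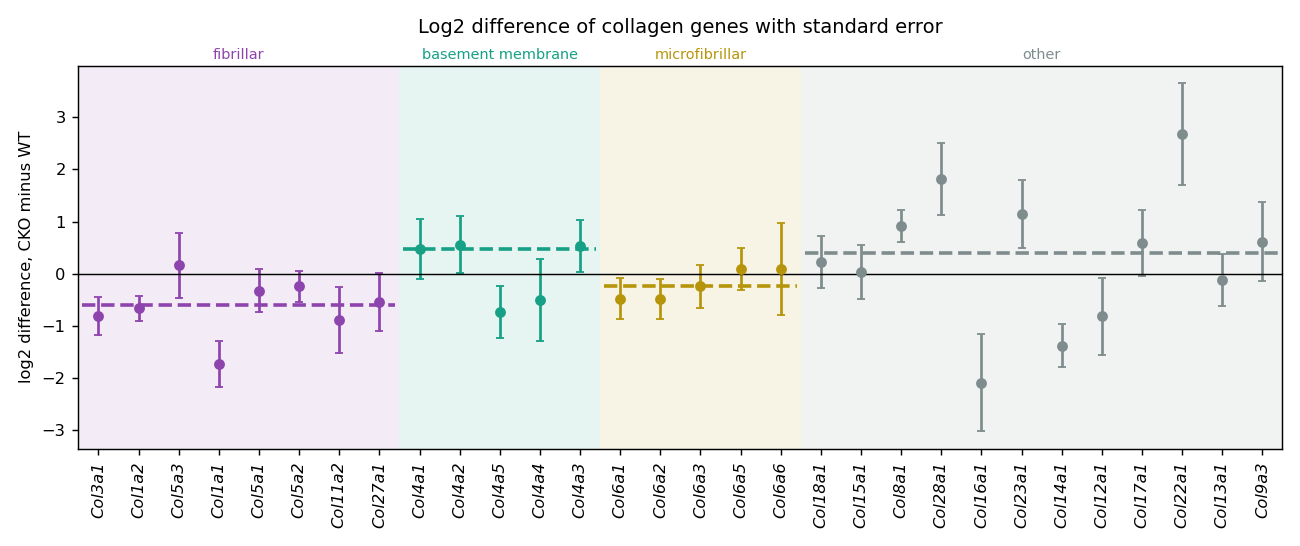
Log2 difference (CKO minus WT, on log2(scaled reads + 1)) of each tested collagen with its standard error from limma, ordered as in the plot of scaled reads; dashed lines are class medians. The fibrillar median lies at -0.61 and the basement membrane median at 0.48, and single genes of the other class range from -2.10 (Col16a1) to 2.68 (Col22a1).

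Averaged over the 4 libraries, basement membrane collagens held the most abundant collagen message in the preparation, Col4a1. Of their 6 genes 5 were tested, 2 lower and 3 higher. Col4a1 and Col4a2, which combine in the type IV network found in nearly all basement membranes, had on average 3555 and 2131 scaled reads per kilobase of transcript, against 2124 for Col3a1, 1227 for Col6a1 and 896 for Col1a2. Col4a2 and Col3a1 were thus nearly level. In WT replicate 2 the order differed, with Col3a1 (3307) above Col4a1 (1838), and Col1a2 (1136) and Col6a1 (1055) above Col4a2 (1037). These 5 genes held 72.3% to 77.6% of all collagen reads. Col4a1 had 23558 and 29164 scaled reads in CKO and 29197 and 12158 in WT, and Col4a2 had 14123 and 17325 against 16857 and 6687. In both genes WT replicate 1 was nearly level with CKO replicate 2, and WT replicate 2 was the lowest. Their log2 differences of 0.48 (SE 0.57) and 0.56 (SE 0.54) became -0.16 and -0.11 without WT replicate 2.

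The chains of the more restricted type IV networks, known from kidney and other specialised membranes, were read at low levels. Col4a5 had 50.1 and 48.9 scaled reads in CKO and 60.2 and 115 in WT, both WT libraries being higher (log2 difference -0.74, SE 0.49, and -0.28 without WT replicate 2). Col4a3 had 34.1 and 31.7 against 28.0 and 17.9, both WT libraries being lower (0.53, SE 0.50, and 0.22 without WT replicate 2). A processed transcript on the opposite strand, C430014B12Rik, shares 563 exonic bases with Col4a3, and the sources used here do not give the strand setting of the counting. Col4a6 had 13 and 1 reads in CKO and 1 and 3 in WT and was not tested. The class median of 0.48 was -0.16 without WT replicate 2 and 0.84 without WT replicate 1.

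Proteins that share the basement membrane with type IV collagen were read beside it. All 12 such genes (laminin chains, nidogens, perlecan, agrin, Sparc and Pxdn) were higher in the CKO libraries by their means, 8 with both CKO libraries above both WT libraries (23.9% of all genes), and 0 at an unadjusted p under 0.05. Their median was 0.85, and 0.39 without WT replicate 2. Lamb2, a laminin β chain, had 6055 and 6860 scaled reads in CKO and 4632 and 1699 in WT (log2 difference 1.20, SE 0.52). Lama4, the laminin α chain of capillaries and adipocytes, had 9031 and 5977 against 5108 and 1374 (1.47, SE 0.68). Sparc, which binds collagens and had the highest reads of the list, had 68092 and 86180 against 105716 and 43940, with the WT libraries on either side (0.17, SE 0.80). Cell types that make these membranes had marker lists with the same sign: endothelial markers were higher in 10 of 10 (median 1.22, and 0.50 without WT replicate 2), adipocyte markers in 7 of 8 (1.19, and 0.31) and pericyte and smooth muscle markers in 7 of 10 (0.97, and 0.30). WT replicate 2 had the lowest sum in each of these 3 lists, and their part in the type IV values was not tested.

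Microfibrillar collagens, the type VI chains, overlapped between the groups in all 5 members tested. Col6a1 had 3358 and 4952 scaled reads in CKO and 7487 and 4324 in WT, and Col6a2 had 2488 and 4144 against 5523 and 3639. In both genes CKO replicate 1 was the lowest library and WT replicate 1 the highest, and the log2 differences were -0.48 (SE 0.39) and -0.48 (SE 0.38), or -0.20 and -0.11 without CKO replicate 1. Col6a3, the long chain whose end is cut off as the adipose signal endotrophin, had 699 and 1410 against 1379 and 1007 (-0.25, SE 0.41). Col6a5 (0.09) and Col6a6 (0.09) were read at 132 to 223 and 15.4 to 86.2 scaled reads, and Col6a4 had 2 reads in 1 library and 0 in the other 3. The class median of -0.25 lay between -0.75 (without CKO replicate 2) and -0.05 (without WT replicate 1), and was -0.47 without WT replicate 2.

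Of the 21 other collagens 12 were tested, 4 lower and 8 higher, with a median of 0.41 that was -0.17 without WT replicate 2. Fibril-associated chains among them sit on the surface of fibrils and link them to their surroundings. Of 9 such genes 5 were tested, 3 lower and 2 higher. Col14a1, which coats type I fibrils, had 59.1 and 48.9 scaled reads in CKO and 123 and 164 in WT. The groups were well apart, with a log2 difference of -1.38 (SE 0.41, limma unadjusted p 0.020, adjusted p 0.459) and of -1.17 without WT replicate 2. Col16a1 was the member of this group with the most reads, at 42.1 and 193 scaled reads in CKO and 704 and 217 in WT. CKO replicate 2 and WT replicate 2 were close together, and the log2 difference was -2.10 with a standard error of 0.93 (limma unadjusted p 0.075). It was -1.01 without CKO replicate 1, -3.18 without CKO replicate 2, -1.25 without WT replicate 1 and -2.95 without WT replicate 2.

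Col12a1, a relative of Col14a1 at the fibril surface, had 41.1 and 55.3 scaled reads in CKO and 165 and 43.1 in WT, so its difference (-0.82) rested on WT replicate 1 and was 0.14 without it. Col22a1, a chain known from tissue junctions such as that of muscle and tendon, was the member with the largest difference upward. It had 30.1 and 67.0 scaled reads in CKO and 15.6 and 2.10 in WT, a log2 difference of 2.68 (SE 0.98, limma unadjusted p 0.042, adjusted p 0.459) that rested on few reads and was 1.47 without WT replicate 2. An antisense gene shares 16 exonic bases with it. Col9a3 had 3.15 to 12.5 scaled reads (0.61), and its exons share 234 bases with Tcfl5 on the other strand. The rest of the group (Col9a1, Col9a2, Col19a1 and Col20a1) had 0 to 9 reads in any library.

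Tested short-chain, vessel-associated and transmembrane collagens had differences between -0.12 (Col13a1) and 1.15 (Col23a1). Col8a1, a short-chain collagen of vessel walls (chr16:57624258-57754737), had 638 and 717 scaled reads in CKO and 433 and 294 in WT. All 4 values kept the groups apart, with a log2 difference of 0.92 (SE 0.30, limma unadjusted p 0.030, adjusted p 0.459) and of 0.64 without WT replicate 2. Its relatives Col8a2 and Col10a1 had 1 to 6 reads. Col15a1 and Col18a1, the multiplexins of vascular basement membranes (the second is the source of endostatin), overlapped between the groups: Col15a1 had 1113 and 1038 against 1756 and 627 scaled reads (0.03), and Col18a1 had 1960 and 2304 against 2946 and 1129 (0.22). WT replicate 1 was the highest and WT replicate 2 the lowest library in both, and without WT replicate 2 the differences were -0.71 and -0.47.

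Of the transmembrane collagens, Col23a1 had 169 and 101 scaled reads in CKO and 98.6 and 34.7 in WT (log2 difference 1.15, SE 0.65), CKO replicate 2 and WT replicate 1 being nearly level. The difference was 0.41 without WT replicate 2 and 1.89 without WT replicate 1. Col17a1, the hemidesmosome collagen of epithelia, had 40.1 and 83.3 against 55.0 and 26.3 (0.59, and 0.07 without WT replicate 2), Col13a1 had 13 reads in each library, and Col25a1 had 0 to 10 reads. Col28a1, a collagen with von Willebrand factor A domains that is known from peripheral nerve (chr6:7997808-8192617), had 850 and 630 scaled reads in CKO and 411 and 104 in WT. Both CKO libraries were above both WT libraries, at a log2 difference of 1.82 (SE 0.69, limma unadjusted p 0.048, adjusted p 0.459) and of 0.83 without WT replicate 2. Schwann cell markers stood the other way, at 5649 and 4264 summed scaled reads in CKO and 7158 and 14239 in WT. The anchoring fibril chain Col7a1 and Col26a1 had 0 to 12 reads.

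Whether these values depended on a library was read for all 30 tested collagens. The sign of the difference was the same in each of the 4 leave-one-out fits for 17 of them: 5 of 8 fibrillar, 2 of 5 basement membrane, 2 of 5 microfibrillar and 8 of 12 other collagens. Without WT replicate 1, a fit that takes the spread of the remaining WT library from the CKO pair, 3 collagens passed the adjusted threshold: Col1a1 (-2.18, SE 0.41, limma adjusted p 0.0472), Col22a1 (3.89, SE 0.77, adjusted p 0.0490) and Col28a1 (2.80, SE 0.33, adjusted p 0.0442). In that fit 5.56% of all genes passed as lower and 4.96% as higher, so the 1 lower and 2 higher of 30 collagens lay near the background. The library that then stands alone for the WT group is WT replicate 2.

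Fibrillar chains took a smaller share, and basement membrane chains a larger share, of the collagen reads of both CKO libraries. Fibrillar chains took 28.8% and 23.5% of collagen reads in CKO replicates 1 and 2, against 31.4% and 51.8% in WT replicates 1 and 2. Basement membrane chains took 54.2% and 57.0% in CKO and 46.9% and 29.7% in WT. The margin was narrow against WT replicate 1 and wide against WT replicate 2. Microfibrillar chains took 9.82% and 13% against 14.8% and 14.3%, and the others 7.16% and 6.49% against 6.86% and 4.19%. The exact binomial 95% intervals of these shares reached at most 0.398 percentage points to either side and cover counting error only. The smallest two-sided p an exact permutation test of 2 libraries against 2 can give is 0.33, so the shares were not tested. Per kilobase of transcript the fibrillar shares were 29.6% and 24.1% against 31.5% and 52.3%.

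**Figure D3:**
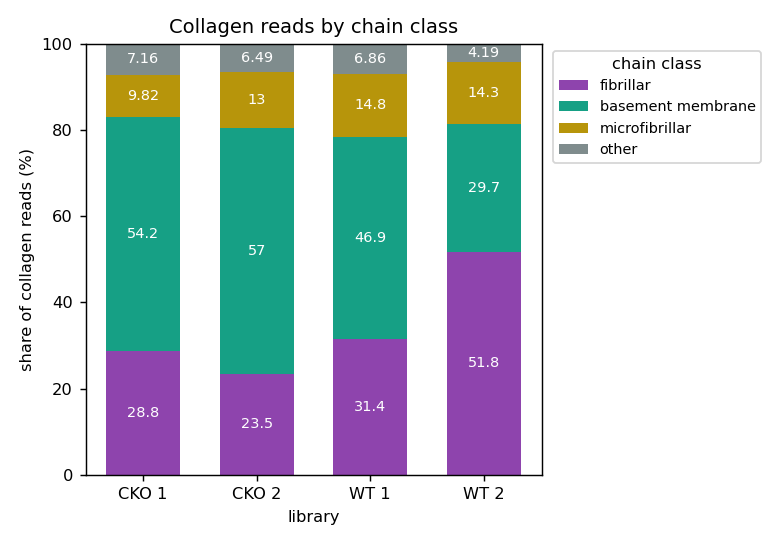
Share of each library's collagen reads (percent) that fell on fibrillar, basement membrane, microfibrillar and other chains, 1 stacked bar per library. The basement membrane share is 54.2% and 57.0% in the CKO libraries, 46.9% in WT replicate 1 and 29.7% in WT replicate 2, where fibrillar chains take 51.8%.

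Ratios between chains within a library do not depend on the scaling between libraries, and some pairs kept a ratio more closely than others. They are ratios of reads, not corrected for length, so each is compared across libraries only. Col4a1 to Col4a2, the head-to-head pair that also shares a molecule, stood at 1.67 and 1.68 in CKO and at the slightly higher 1.73 and 1.82 in WT, although each gene alone ranged widely across the 4 libraries. Col6a1 to Col6a2, partners in type VI collagen, stood at 1.35 and 1.19 against 1.36 and 1.19. Col15a1 to Col18a1 stood at 0.568 and 0.450 against 0.596 and 0.555. Col6a3 to Col6a1 (0.208 and 0.285 against 0.184 and 0.233) and Col5a1 to Col5a2 (1.82 and 1.62 against 2.10 and 1.58) overlapped between groups. Within type V, Col5a3 to Col5a1 stood at 2.25 and 2.18 against 2.03 and 1.23, with both CKO libraries higher and WT replicate 2 far below the rest. The other head-to-head pair with enough reads, Col4a3 to Col4a4, stood at 1.48 and 1.40 against 0.415 and 1.13, with both CKO libraries higher, on 15 to 65 reads per gene and library. The 95% intervals of WT replicate 2 (0.532 to 2.44) and of both CKO libraries overlapped, and that of WT replicate 1 (0.255 to 0.660) lay below the CKO intervals.

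Type I collagen did not hold such a ratio. Its helix usually carries more α1 than α2 chains, but a ratio of reads does not measure the chains in the protein. Col1a1 to Col1a2 was 0.194 (95% interval 0.179 to 0.210) and 0.361 (0.339 to 0.383) in CKO replicates 1 and 2. In WT replicates 1 and 2 it was 0.423 (0.403 to 0.444) and 0.731 (0.702 to 0.760). The intervals, which cover counting error only, did not overlap between any of the libraries, and both CKO libraries were lower. The mean log2 ratio was lower by a difference of -1.07. Col1a1 was also lower against Col3a1, at 0.0856 and 0.157 against 0.201 and 0.241, while Col3a1 to Col1a2 overlapped between groups, at 2.27 and 2.30 against 2.10 and 3.03.

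**Figure D4:**
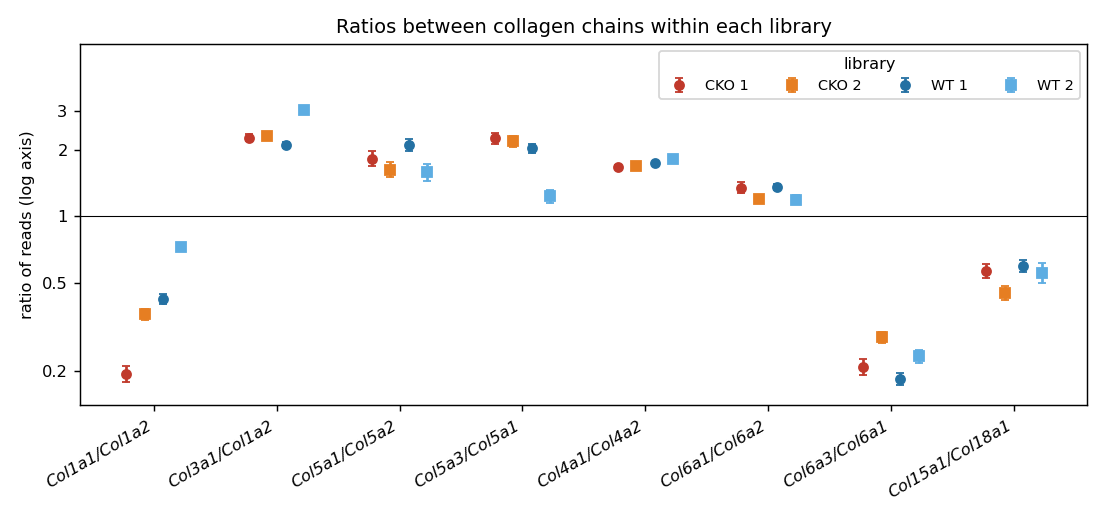
Ratio of reads between chain pairs (log axis) in each library, with 95% binomial intervals (counting error only). Col4a1/Col4a2 lies between 1.67 and 1.82 in all 4 libraries, whereas Col1a1/Col1a2 runs from 0.194 in CKO replicate 1 to 0.731 in WT replicate 2.

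Set against Pdgfra, a receptor that marks fibroblasts and preadipocytes, Col1a1 was lower in both CKO libraries by a narrow margin, while Col3a1 and Col1a2 overlapped. No other marker of the fibroblast list was used as the divisor, so the margin holds for Pdgfra only. Col3a1 to Pdgfra was 69.3 and 80.2 in CKO and 74.5 and 68.1 in WT, which overlapped. Col1a2 to Pdgfra overlapped too, at 30.6 and 34.9 against 35.4 and 22.5. Col1a1 to Pdgfra was 5.93 and 12.6 against 15 and 16.4, both CKO libraries being lower, with a mean log2 difference of -0.86. The 95% interval of CKO replicate 2 (10.4 to 15.3) overlapped that of WT replicate 1 (12.7 to 17.7), so these libraries were not apart at this depth. Col4a1 to Cdh5, the cadherin of endothelial junctions, was 3.88 and 3.07 in CKO and 5.31 and 6.11 in WT. Per endothelial marker read, Col4a1 was thus lower in both CKO libraries, although per library it was not. Col4a1 to Adipoq, the adipocyte hormone gene, was 0.329 and 0.741 against 0.633 and 1.53, and overlapped.

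**Figure D5:**
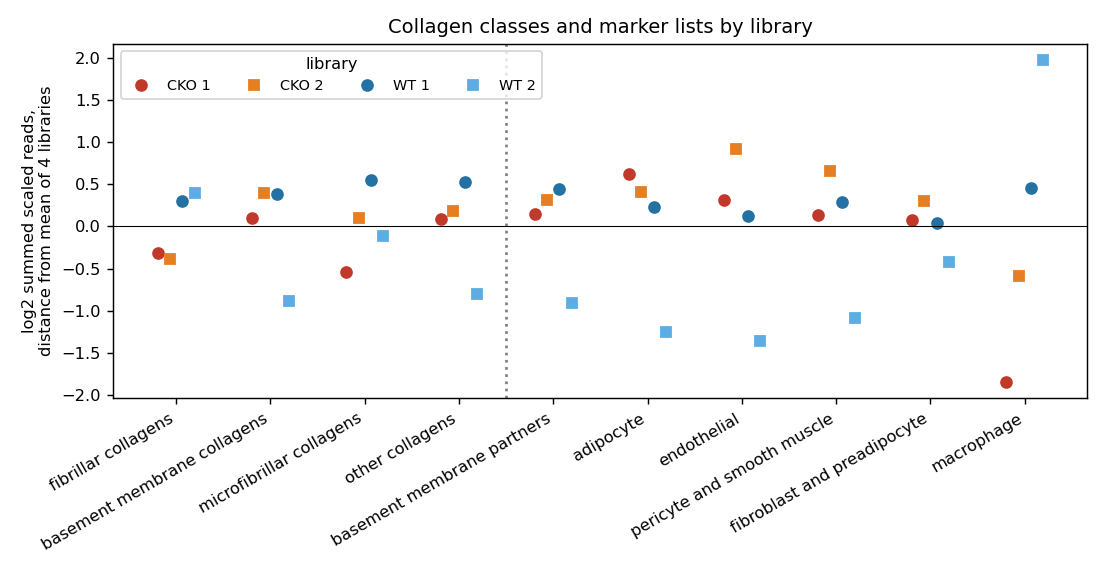
Summed scaled reads of each collagen class, of basement membrane partners and of 5 marker lists in each library, as the log2 distance from the mean of the 4 libraries. Fibrillar collagens have both CKO points below both WT points, while in the basement membrane, adipocyte, endothelial and pericyte lists WT replicate 2 is lowest and in the macrophage list it is highest.

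The genes that modify, process, bind and break down collagen were taken from lists by function. Their counts also stand beside the shares of all genes given above, 7.26% lower and 3.35% higher at an unadjusted p under 0.05. Some lists share genes, so their counts are not independent. Mrc2 is in the receptor and breakdown lists, and Pxdn in those of cross-linking and basement membrane partners. Cspg4 is a receptor here and also a marker of pericytes and smooth muscle. Of 14 tested genes of proline and lysine hydroxylation and galactosylation, 8 were lower and 6 higher (median -0.26, and -0.0099 without CKO replicate 1). P4hb, the shared β subunit of prolyl 4-hydroxylase, was the most abundant, at 10744 and 10765 scaled reads in CKO and 14340 and 19419 in WT (log2 difference -0.63). Colgalt1, which adds galactose to hydroxylysine, had 1604 and 2636 against 3722 and 8931 (-1.49, SE 0.52, limma unadjusted p 0.035), and was the 1 gene of the list under that level.

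Among 9 tested genes of folding and export, 5 were lower and 4 higher (median -0.06, and 0.20 without CKO replicate 1). Serpinh1, the collagen chaperone HSP47, had 8340 and 13306 scaled reads in CKO and 16672 and 7242 in WT, so that the groups overlapped (-0.06, SE 0.53). Fkbp10, a prolyl isomerase of the endoplasmic reticulum needed for type I cross-links, had 421 and 519 against 287 and 228 (0.87, SE 0.30, limma unadjusted p 0.034). Of 6 tested processing genes 4 were lower and 2 higher (median -0.21, but 0.03 without CKO replicate 1 and 0.05 without WT replicate 1). Pcolce2, which speeds removal of the procollagen tail, had 73.1 and 171 scaled reads in CKO and 1084 and 473 in WT (-2.67, SE 0.61, limma unadjusted p 0.007, adjusted p 0.459). Its relative Pcolce overlapped, at 842 and 1167 against 1050 and 1002 (-0.05). Bmp1, the protease that cuts the tail, was at 0.38, and Adamts2, which cuts the other end and had the most reads of the list, at -0.38.

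Cross-linking genes were split, with 3 lower and 4 higher, and their median of 0.43 became 0.11 without WT replicate 2, or 0.14 when CKO replicate 1 was left out. Lox, the founding lysyl oxidase, had 506 and 385 scaled reads in CKO and 917 and 593 in WT (-0.74, SE 0.33), and Loxl3 had 101 and 134 against 166 and 440 (-1.21, SE 0.56). Pxdn, the peroxidase that cross-links type IV collagen, stood the other way, at 9112 and 9384 against 6998 and 2048 (1.29, SE 0.62, and 0.40 without WT replicate 2). Tgm2, a transglutaminase with the most reads of the list, was at 0.58. Of 10 tested collagen receptors 5 were lower and 5 higher, and 2 had an unadjusted p under 0.05. Their median of 0.05 was -0.22 without WT replicate 2, -0.09 without CKO replicate 2 and 0.41 without WT replicate 1. These were Lair1, an inhibitory receptor of leukocytes (-2.63, SE 0.68), and Mrc2, which takes up collagen fragments (103 and 183 scaled reads against 1024 and 400, -2.21, SE 0.57). Itgb1, the β1 integrin that pairs with all collagen-binding α chains, overlapped between groups (-0.16), and its partner Itga1 was at 1.27 (SE 0.59), and at 0.49 without WT replicate 2.

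Collagen breakdown was the list with the lowest median, -0.98 (-0.75 without WT replicate 2 and -1.51 without CKO replicate 1), with 8 of 10 genes lower, 2 higher and 4 at an unadjusted p under 0.05. The 4 include Mrc2, which was counted among the receptors as well. Mmp13, a collagenase, had 3.01 and 36.2 scaled reads in CKO and 95.5 and 406 in WT (-4.02, SE 1.29). Ctsk, the collagen-degrading cathepsin of osteoclasts, had 223 and 898 against 2063 and 9912 (-3.33, SE 0.99), and Mmp3 had 2.00 and 6.34 against 21.8 and 99.9 (-3.35, SE 0.94). Mmp2 and Mmp14, proteases of stromal cells, were at -0.55 and 0.04, and Pepd, which frees proline from collagen peptides and had the most reads of the list, at -1.02. Osteoclast-like markers, which hold Ctsk and Mmp9 too, had sums of 7877 and 8325 in CKO and 17992 and 45447 in WT. The sum of WT replicate 2 was mostly Atp6v0d2 (215 and 1824 scaled reads in CKO, 6348 and 27336 in WT) and Ctsk. Of 6 tested markers 4 had both CKO libraries below both WT libraries (26.8% of all genes). Acp5 (-0.16) and Mmp9 (-0.94) overlapped between groups, and Calcr and Oscar had 0 to 4 reads and were not tested. Macrophage markers were lower as given above, and their part in the breakdown list was not tested.

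TGF-beta signalling, a major inducer of fibrillar collagen genes, was read in 14 genes, of which 3 were lower and 11 higher (median 0.44), 3 of these higher at an unadjusted p under 0.05. The median was 0.19 without WT replicate 2, the library lowest in the adipocyte and endothelial markers that were higher in CKO as given above, and their part in this list was not tested. Smad7, an inhibitor of the pathway, had 481 and 927 scaled reads in CKO and 299 and 202 in WT (1.44, SE 0.43). Ltbp1, which stores the latent ligand, had 458 and 350 against 219 and 139 (1.19, SE 0.37), and Tgfbr3, the co-receptor betaglycan, had 6220 and 6131 against 3821 and 1374 (1.43, SE 0.52, and 0.69 without WT replicate 2). The ligand Tgfb1 stood the other way, at 1147 and 1806 against 2132 and 4745 (-1.14, SE 0.48, and -0.57 without WT replicate 2). Tgfbr2, the receptor with the most reads of the list, was at 0.22, and Ccn2, a common target of the pathway, was at 0.49 with overlapping libraries.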

How the data were processed

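The 4 columns of deposited log2 values were read, 1 per library, and every column was used. In these values, 2 to the power of a value minus 1 was whole within 0.01 for 100% of rows, so the authors' log2 values are log2(reads + 1) without scaling, although the labels call them normalised. The submitters' processing notes list FastQC, STAR 2.7.5c and the build GRCm38.p6. The counting tool, gene models and strand were not given in the sources used here.

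Reads were recovered, divided by median-ratio size factors and taken to log2 with a pseudocount of 1, which understates differences of low genes. Genes whose deposited log2 values averaged 3 or more (7 reads) were fitted in limma 3.58.1 (R 4.3.3; trend, two-sided), with Benjamini-Hochberg adjustment over 16871 genes. Residual degrees of freedom were 2 and prior ones 2.92. No negative binomial count model was run, and limma's voom weights on the recovered reads were an alternative setting. The fit was run on simulated reads to check the code. The simulated spread between libraries was set in advance and not taken from these data. That run therefore does not show what the fit can detect here. Class medians are descriptions with no test. Replicates are separate libraries, numbered in record order and not paired, and no label says that they are separate animals, so p-values measure the spread between libraries only.

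Members and lists were chosen with earlier results of these data known. Full values are given for the 2 most abundant members of each class, for members at an unadjusted p under 0.05 and for those with separated groups and a log2 difference over 1 in size. For each list up to 3 genes of smallest p and the most abundant were named, and further genes named were chosen after their values were seen. Levels per kilobase use the GENCODE M21 transcript with the longest coding sequence, and 55094 rows (99.3%) matched that annotation. Python 3.11.15, pandas 2.3.3 and scipy 1.17.1 were used.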

Additional observations from a re-analysis of the deposited data

How the results depend on the processing

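The 13 other settings were other scalings, filters, pseudocount and variance models, and each library left out in turn. Of 206 values of single genes, 198 kept their direction and side of the threshold, 3 passed it (Col1a1, Col22a1 and Col28a1 without WT replicate 1) and 5 reversed. The reversed values were, without WT replicate 2, Col4a1 -0.16, Col4a2 -0.11, Col15a1 -0.71 and Col18a1 -0.47, and, without CKO replicate 1, Col15a1 -0.015. The highest values over left-out libraries were 1.11, 1.23, 0.78 and 0.91 in the same gene order. Of 89 values of counts, medians and shares, 67 stayed, 20 moved and 2 reversed. With libraries left out, collagens past the adjusted threshold numbered 0 to 3, those lower at an unadjusted p 0 to 6 and those higher 0 to 9. Of the left-out libraries, WT replicate 1 gave the 3 and the 9, WT replicate 2 the 6, CKO replicate 1 the 0 lower and CKO replicate 2 the 0 higher. Collagens higher at an unadjusted p numbered 1 with no filter and 1 with a minimum mean of 6. The fibrillar median was -0.48 unscaled, -0.50 with a minimum mean of 6 and -0.48 with a pseudocount of 10, and -0.71 to -0.42 with libraries left out. The other medians ranged over left-out libraries from -0.16 to 0.84 (basement membrane, reversed without WT replicate 2), -0.75 to -0.047 (microfibrillar) and -0.17 to 1.0 (other collagens, reversed without WT replicate 2). Mean shares per kilobase moved to 51.0% for basement membrane in CKO, 14.3% and 17.9% for microfibrillar in CKO and WT, and 7.87% for other collagens in CKO. Unscaled values moved the median of all genes from 0.015 to 0.147. Over all genes, those lower and higher at an unadjusted p numbered 1224 and 566 as reported, 855 and 859 unscaled, 772 and 1143 with no filter, and 866 and 333 with a minimum mean of 6, and 212 to 2876 and 122 to 2875 with libraries left out. Low reads limit 14 untested collagens, which had at most 13 reads. No paired analysis was possible because replicate numbers follow record order and link no libraries.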
